A study of Homo sapiens with 2 samples.

Results

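The genes described here are 32 mesenchymal structural and matrix genes, taken by gene symbol from the platform annotation of the array: intermediate filament and actin-linked proteins, surface proteins of mesenchymal cells, fibrillar and type VI collagens, collagen cross-linking enzymes, matrix glycoproteins, small proteoglycans and the ligand gene WNT5A. Transcription factors and the cadherin genes CDH1 and CDH2 were left out by that choice. All 32 were on the array, with 52 probes in all, among 20046 named genes. They were measured in total RNA of 2 cultures on Illumina bead arrays, with 1 array for each culture and no replicate. The established human line HCT-8 comes from a colon cancer and is called parental here. HCT-8/V, called resistant here, withstands vincristine, a drug that binds tubulin. For both cultures the labels carry the same text: RPMI with fetal bovine serum as the medium and, as treatment, the Twist plasmid pcDNA3.1-Twist, transferred 48 h ahead of RNA extraction. They do not settle whether either culture was meant as a control without the plasmid, in which case each difference below would also hold the effect of Twist. No culture labelled as lacking it was analysed here, so that effect cannot be told apart from the state of either line, and HCT-8/V against HCT-8 is the only contrast. The labels do not say how HCT-8/V was selected, whether it is a clone, or how many cells took up the plasmid.

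Mesenchymal cells such as fibroblasts secrete a matrix of collagen fibres, fibronectin and proteoglycans, and they hold their shape with vimentin filaments and contractile actin bundles. When epithelial cells go through epithelial-mesenchymal transition, a change that TWIST1 is widely used to drive, they lose cell-cell junctions and gain vimentin and matrix gene expression, often in part. In a colon tumour most of the collagen is made by fibroblasts of the stroma rather than by the cancer cells. TWIST1 is a basic helix-loop-helix factor and binds E-boxes, short DNA motifs with the letters CANNTG.

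Promoter windows of 4 genes are shown because their readings mark the patterns described below: CSPG4 and PDGFRB were bright and higher in HCT-8/V, VIM was bright and nearly level, and POSTN was dim, with probes that went opposite ways. Each window runs from 250 bases before to 50 bases after the gene's start, as RefSeq gives it on build GRCh38.p14, and E-boxes are in capitals. The windows are chr15:75712799-75713098 on the minus strand for CSPG4, chr5:150155796-150156095 on the minus strand for PDGFRB, chr10:17227991-17228290 on the plus strand for VIM and chr13:37598719-37599018 on the minus strand for POSTN.
CSPG4: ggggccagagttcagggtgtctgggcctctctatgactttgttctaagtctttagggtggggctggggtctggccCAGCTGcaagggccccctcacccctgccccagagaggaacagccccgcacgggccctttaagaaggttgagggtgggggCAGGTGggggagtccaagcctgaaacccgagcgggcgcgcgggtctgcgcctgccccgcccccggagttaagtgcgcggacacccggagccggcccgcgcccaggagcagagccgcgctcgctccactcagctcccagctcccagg
PDGFRB: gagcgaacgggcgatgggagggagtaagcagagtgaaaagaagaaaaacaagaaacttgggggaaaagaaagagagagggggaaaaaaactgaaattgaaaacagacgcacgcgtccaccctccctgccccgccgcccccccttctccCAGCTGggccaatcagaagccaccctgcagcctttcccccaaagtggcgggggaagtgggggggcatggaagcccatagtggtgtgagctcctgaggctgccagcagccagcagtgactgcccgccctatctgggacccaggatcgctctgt
VIM: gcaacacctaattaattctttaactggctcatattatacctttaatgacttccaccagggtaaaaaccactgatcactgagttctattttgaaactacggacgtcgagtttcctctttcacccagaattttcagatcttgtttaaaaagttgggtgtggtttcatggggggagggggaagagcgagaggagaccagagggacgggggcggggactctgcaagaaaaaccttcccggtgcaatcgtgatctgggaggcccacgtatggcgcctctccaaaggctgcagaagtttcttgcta
POSTN: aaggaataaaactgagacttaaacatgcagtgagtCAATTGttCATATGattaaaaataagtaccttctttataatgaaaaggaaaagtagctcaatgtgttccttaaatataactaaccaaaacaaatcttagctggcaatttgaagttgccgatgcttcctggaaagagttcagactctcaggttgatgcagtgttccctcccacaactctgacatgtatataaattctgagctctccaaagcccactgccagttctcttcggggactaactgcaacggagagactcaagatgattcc
The CSPG4 window holds 2 E-boxes, that of PDGFRB 1, that of POSTN 2 and that of VIM 0. The motif pattern is the same on either strand, and in these windows no E-box overlapped another. Windows were matched by symbol for 22 of the 32 genes, and 12 of these had an E-box in at least 1 window. Over windows, 17 of 33 (51.5%) held one, against 68.7% of the 35116 windows in the table. The 4 windows shown were chosen by the readings of their genes, so their E-box counts do not stand for the rest. Among genes with lower readings in HCT-8/V, the window of DPT held 4 and that of TNC 2. Those of THBS1, CD44 and SRPX, also lower, held 0. The window of COL6A2, higher on its brightest probe, held 0 as well. Whether E-boxes go with the direction of a reading was not tested. A match describes the letters in the window and not a site that TWIST1 was shown to bind.

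A reading counted as measured when it was above the median of all probes on its array, called the floor, which was 12.44 in the parental and 12.42 in the resistant line. Readings above the 75th percentile of all probes, 81.3 on both arrays, are called bright. Each gene is given by its probe of highest mean intensity, in arbitrary linear units. A difference is resistant minus parental in log2 of the floored intensity, and a reading below the floor gives only a bound, written as "at least". The brightness of a probe depends on its sequence, so readings of different genes are set against the floors and not against each other. With 1 array per line no test was possible, and every difference below is a description of these arrays that can come from the lines, the cultures or the arrays. In total RNA of a whole culture, fewer cells of a type and less RNA per cell cannot be told apart.

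By the brightest probe, 22 of the 32 genes were above the floor on both arrays, 1 in HCT-8 alone, 3 in HCT-8/V alone and 6 on neither. That is 26 genes on at least 1 array, a state shared by 68.7% of all named genes. Of the 32, 14 were bright on at least 1 array, as were 40% of all named genes. The bright genes were VIM, MSN, CALD1, CD44, EMP3, CSPG4, PDGFRB, WNT5A, COL5A1, COL6A1, TNC, THBS1 and DCN on both arrays and COL1A1 in HCT-8/V alone. The 6 below the floor on both arrays were FN1, CDH11, COL1A2, COL5A2, LOXL2 and BGN. Of the cytoskeletal and surface genes 10 of 11 were above the floor and 7 of 11 bright. Above the floor were 3 of 5 fibrillar collagens, 3 of 3 type VI chains and 1 of 2 cross-linking enzymes. So were 5 of 6 matrix glycoproteins and 3 of 4 small proteoglycan and dermatopontin genes. Bright in these matrix groups were 2, 1, 0, 2 and 1 genes in the same order.

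**Figure D1:**
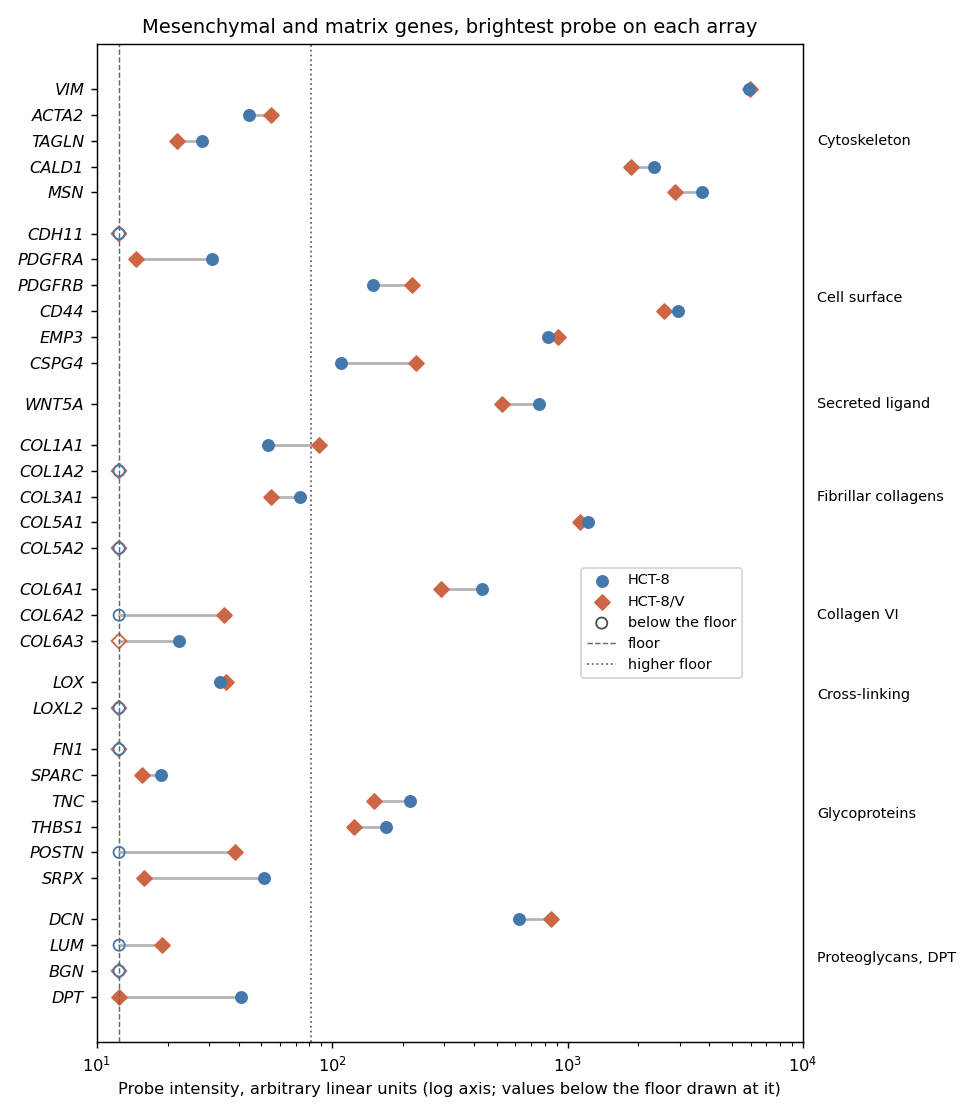
Intensity of the brightest probe of each of the 32 genes on the HCT-8 array (circles) and the HCT-8/V array (diamonds), on a log axis and grouped by role, with the floor (dashed) and the higher floor (dotted). Open symbols are readings below the floor, drawn at it, and grey lines join the 2 arrays. VIM lies at 5921 and 5944, CSPG4 moves from 109 to 227, and 6 genes sit at the floor on both arrays.

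Among the cytoskeletal genes, VIM, MSN and CALD1 were bright in both cultures. VIM, which encodes the intermediate filament protein vimentin, read 5921 in the parental and 5944 in the resistant line on its brightest probe, a log2 difference of 0.01. Its second probe read 3480 and 3001, a difference of -0.21, so the 2 probes did not share a direction and both differences were small. MSN, which encodes moesin, a linker between the actin cortex and the membrane, read 3740 in the parental and 2856 in the resistant line and was 1.31-fold lower. CALD1, the actin and tropomyosin binding protein caldesmon, was lower in HCT-8/V on each of its 3 probes. These read 2332, 747 and 352 in the parental and 1855, 611 and 265 in the resistant line, with log2 differences of -0.33, -0.29 and -0.41.

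The smooth muscle genes of the same group were dim. ACTA2, which encodes smooth muscle alpha-actin, a marker of myofibroblasts, read 44.1 in the parental and 55.1 in the resistant line. TAGLN, the actin-binding protein transgelin, read 27.9 and 21.8 on its brightest probe, while another probe, at 4.23 in the parental line, was below the floor there and read 24.0 in HCT-8/V. The third TAGLN probe was below 0 on both arrays. The direction for TAGLN therefore depended on the probe, with a log2 difference of -0.35 on the brightest and 0.20 over the mean of all 3.

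Of the 6 surface protein genes, CSPG4 and PDGFRB were bright and higher in HCT-8/V, and CD44 was bright and lower. CSPG4, the membrane proteoglycan NG2 found on pericytes and glial progenitors, read 109 in the parental and 227 in the resistant line, which was 2.08-fold higher on its single probe. It was the only one of the 32 genes to reach 2-fold with bright readings on both arrays. PDGFRB, a receptor for platelet-derived growth factor on pericytes and fibroblasts, read 149 and 218 and was 1.47-fold higher, also on a single probe. The related receptor gene PDGFRA went the other way but was dim, at 30.9 in the parental and 14.6 in the resistant line (2.11-fold lower), and its other probe was below 0 on both arrays.

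CD44, the hyaluronan receptor that is spliced into many variants, was lower in HCT-8/V on each of its 3 probes. Its brightest probe read 2939 in the parental and 2562 in the resistant line, a log2 difference of -0.20. The second read 573 and 335, a difference of -0.77, and the third, which was not bright, read 60.7 and 44.0, a difference of -0.46. The probes thus shared a direction and differed in size. EMP3, a membrane protein with several membrane-spanning segments, read 823 and 913, a log2 difference of 0.15. CDH11, the mesenchymal cadherin of osteoblasts and fibroblasts, was below the floor on both arrays, at 0.964 in the parental and 9.76 in the resistant line.

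WNT5A, a ligand of the non-canonical Wnt pathway that acts on cell polarity and migration, read 753 in the parental and 525 in the resistant line. It was 1.43-fold lower on its single probe, a log2 difference of -0.52. Among all genes with a mean intensity between 500 and 2000, 90% differed by less than 0.49 in either direction.

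Of the fibrillar collagen genes, COL5A1 was bright in both cultures and COL1A1 in HCT-8/V. COL5A1, the chain that sets the diameter of collagen fibrils in heterotypic fibres, read 1226 in the parental and 1131 in the resistant line, a log2 difference of -0.12. Its partner in the type V trimer, COL5A2, was below 0 on both arrays at -22.2 and -22.5. COL1A1, the more abundant chain of type I collagen, read 53.6 and 87.7 and was 1.64-fold higher in HCT-8/V. Its partner COL1A2 was below the floor on the brightest probe, at 11.0 and 7.83, and at 12.5 in HCT-8/V its second probe was level with the floor. COL3A1, the type III chain of extensible tissues, read 73.1 and 55.0, a log2 difference of -0.41. For types I and V, then, the brightest probe of one chain of the trimer was above the floor and that of the other was not. Each of those readings rests on 1 or 2 probes, and how well each probe detects its transcript was not tested.

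The type VI collagen genes, whose chains form beaded filaments near the cell surface, were all above the floor on at least 1 array but uneven. COL6A1 was bright, at 432 in the parental and 291 in the resistant line, and was 1.49-fold lower. COL6A2 was below the floor in HCT-8 at 5.61 and read 34.7 in HCT-8/V, at least 2.79-fold higher, but its other 2 probes were below the floor on both arrays. COL6A3 was split between its probes, at 22.4 and 11.0 on the brightest and 12.5 and 19.3 on the second. At these levels the 3 chains cannot be said to differ together.

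The cross-linking enzymes gave little signal. LOX, the lysyl oxidase that cross-links collagen and elastin, read 33.3 in the parental and 35.4 in the resistant line, and its relative LOXL2 was below the floor at 0.599 and 2.13.

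Among the matrix glycoproteins TNC and THBS1 were bright and lower in HCT-8/V. TNC, which encodes tenascin-C, a matrix protein of wounds and tumour stroma, read 215 in the parental and 151 in the resistant line and was 1.42-fold lower. Its dim second probe was nearly level at 18.3 and 17.8. THBS1, which encodes thrombospondin-1, an inhibitor of angiogenesis and an activator of latent TGF-beta, read 169 and 124 and was 1.37-fold lower on its single probe.

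FN1, which encodes fibronectin, the main adhesive glycoprotein of the interstitial matrix and a common marker of epithelial-mesenchymal transition, was below the floor on all 3 of its probes in both cultures. These read 4.25, 8.25 and -29.1 in the parental and 9.75, -6.94 and -21.2 in the resistant line. SPARC, a collagen-binding matricellular protein, was just above the floor at 18.8 and 15.6. VIM was thus bright in the same cultures in which the brightest probes of FN1, CDH11, COL1A2 and COL5A2 gave no reading above the floor.

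POSTN, which encodes periostin, a matricellular protein of fibroblasts and a reported TWIST1 target, was above the floor on a different array for each of its 2 probes. The brighter probe read 10.7 in the parental and 38.8 in the resistant line, at least 3.12-fold higher, and the other read 20.1 and 12.3, at least 1.62-fold lower. SRPX, a sushi-repeat protein, read 51.4 in the parental and 15.8 in the resistant line and was 3.25-fold lower on its single probe.

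The small leucine-rich proteoglycan genes were mixed. DCN, which encodes decorin, a proteoglycan that binds collagen fibrils and TGF-beta, read 625 in the parental and 854 in the resistant line and was 1.37-fold higher. With the mean of its 4 probes the log2 difference went from 0.45 to 0.14. The second probe read 76.7 and 86.4, and the third and the fourth were near or below the floor, at 16.5 and 11.1 in the parental and 15.6 and 7.61 in the resistant line. The relative LUM (lumican) read 10.9 and 18.8, at least 1.51-fold higher, with its other probe below 0, and BGN (biglycan) was below the floor at -5.21 and 8.75. DPT, which encodes dermatopontin, a binding partner of decorin, read 41.2 in the parental and was level with the floor in the resistant line, at 12.4, which was 3.31-fold lower on its single probe.

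**Figure D2:**
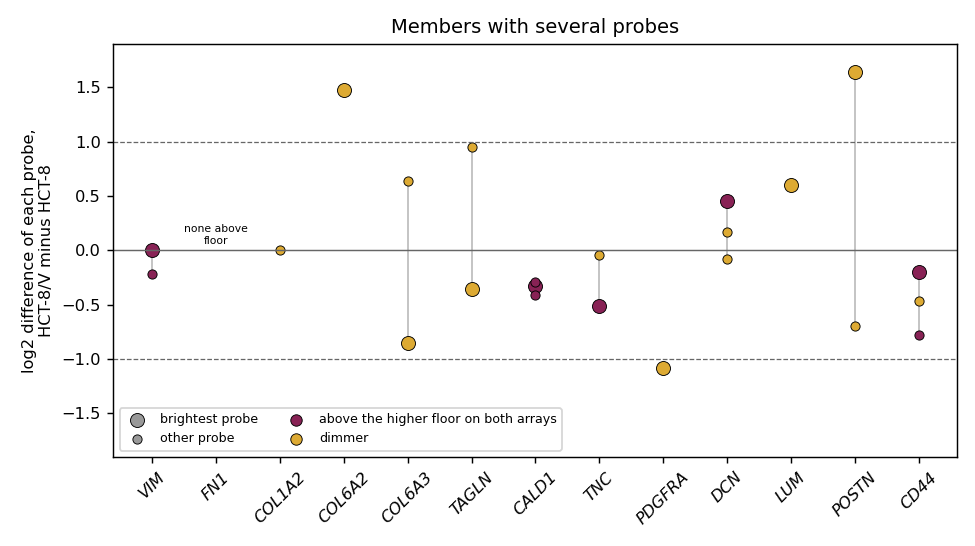
Log2 difference (HCT-8/V minus HCT-8) of every probe above the floor on at least 1 array, for the 13 genes with several probes. Large points are the brightest probe and small points the others, purple is bright on both arrays, dashed lines mark 2-fold, and a gene with no large point has its brightest probe below the floor. The probes of CALD1 lie together between -0.41 and -0.29, while those of POSTN lie at 1.64 and -0.70.

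Of the 13 genes with several probes, 8 had more than 1 above the floor. In 3 of these, CALD1, TNC and CD44, all such probes went the same way, each time lower in HCT-8/V. The second TNC probe was dim and nearly level, at -0.04. In the other 5, VIM, COL6A3, TAGLN, DCN and POSTN, they were split. For DCN the 2 brighter probes were both higher and the dim one after them was -0.08 on the log2 scale. The share of all genes with several probes that agree is not given here, so these counts stand without a background.

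Over the 26 genes above the floor on at least 1 array, 11 had higher and 15 lower readings in the resistant line. Over all 13763 such genes 52.8% were higher and 47.1% lower. The median log2 difference was -0.23 for the 26 genes and 0.03 over all genes. The 4 genes above the floor on 1 array alone had to differ. Over the 22 above it on both arrays, 8 were higher and 14 lower with a median of -0.30, against 0.03 for all genes above it on both. With the 6 genes below the floor counted as no difference, the median over all 32 was 0.

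At least 2-fold differences were 3 higher (POSTN, COL6A2 and CSPG4) and 3 lower (DPT, SRPX and PDGFRA). Among all genes above the floor, 4.24% differed upward by 2-fold or more and 3.77% downward. Apart from CSPG4 the 6 were dim, and in the band of mean intensity between the 2 floors 10.9% of genes reached 2-fold upward and 9.62% downward. Between arrays, 95% of the 13272 probes with a mean intensity below 0 differed by less than 21.4 units. The differences of 28.1 for POSTN, 29.1 for COL6A2, -28.7 for DPT and -35.5 for SRPX were outside that spread, and that of -16.3 for PDGFRA was inside it. These 4 were the only ones of 12 measured but not bright genes outside it. The spread comes from probes dimmer than these genes, and the share of all dim genes outside it is not given here. The count of 4 therefore sets these genes apart from no background.

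**Figure D3:**
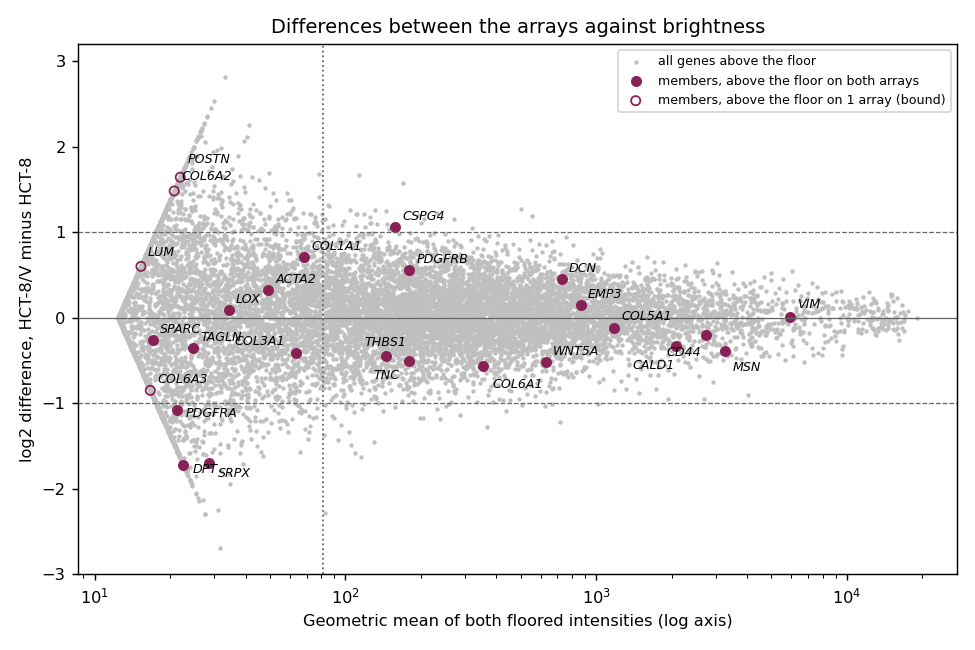
Log2 difference (HCT-8/V minus HCT-8) against the geometric mean of both floored intensities on a log axis, for all 13763 genes above the floor on at least 1 array (grey) and the 26 mesenchymal and matrix genes among them (purple, open where only 1 array was above the floor). Dashed lines mark 2-fold and the dotted line the higher floor. The spread of all genes narrows with brightness, and CSPG4 at 1.06 is the only purple point beyond 2-fold to the right of the dotted line.

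The 14 bright genes had smaller differences, 6 higher and 8 lower. At the higher floor 53.5% of all 8009 genes were higher and 46.4% lower, with 2-fold or more upward in 0.3% and downward in 0.312%. CSPG4 was the 1 gene of the 14 at least 2-fold higher, and 0 were at least 2-fold lower. With values raised to the higher floor the median of the 14 was -0.16, against 0.03 over all genes, and COL1A1 shrank from 0.71 to 0.11. The 8 bright genes with lower readings, COL6A1, WNT5A, TNC, THBS1, MSN, CALD1, CD44 and COL5A1, spanned log2 differences from -0.57 to -0.12. For single genes, the absolute difference was within the median of all genes in the same band of brightness for 3 of the 14 (VIM, COL5A1 and EMP3) and past the 90th percentile for 2, CSPG4 (90th percentile 0.66) and WNT5A.

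To set these readings in the wider matrix programme, 8 further lists of matrix, contractile, TGF-beta and PDGF ligand genes were counted the same way. Over the 8 lists 107 of 154 genes were above the floor. Of these, 4 were at least 2-fold higher (MFAP2, LTBP1, FMOD and SDC2) and 6 at least 2-fold lower (COL8A1, COL11A2, ADAMTS2, LAMA4, BCAN and PDGFB), next to 4.24% and 3.77% of all genes above the floor. At the higher floor there were 0 and 0. These 10 are named after their values were seen, and only PDGFB was bright on either array, at 118 in the parental line against 58.3. Over the mean of all probes, only FMOD and SDC2, with 1 probe each, stayed at 2-fold or more. In that mean a probe below the floor counted as no difference. For MFAP2, with 3 probes, it was -0.04 on the log2 scale. Of 24 further collagen chain genes 16 were above the floor, 6 higher and 10 lower, with a median log2 difference of -0.13, and at the higher floor 4 were higher and 5 lower with a median of -0.001. Here and for the lists that follow, all genes were 52.8% higher and 47.1% lower at the floor, 53.5% and 46.4% at the higher floor, with a median of 0.03 at either. COL7A1, the anchoring fibril collagen of epithelial basement membranes, was bright and level (3035 in the parental and 3031 in the resistant line). COL15A1, a basement membrane zone collagen, was lower (1905 and 1376), and COL4A4 had the largest higher difference among genes bright on both arrays, at 145 and 154.

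Of 19 genes of collagen maturation above the floor, 14 were higher and 5 lower with a median of 0.17, and at the higher floor 11 of 14 were higher with a median of 0.14. P4HB, the protein disulfide isomerase subunit of prolyl 4-hydroxylase, read 3587 in the parental and 4735 in the resistant line, and the lysyl hydroxylase gene PLOD3 read 1121 and 1289.5. P3H1, a collagen prolyl 3-hydroxylase, read 231 and 431, a log2 difference of 0.90, on a single probe. The brightest of 3 probes of its complex partner CRTAP read 782 and 505, a difference of -0.63 that was -0.10 over the mean of the 3. Of the 14, 0 differed by 2-fold.

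Of 12 basement membrane genes above the floor 6 were higher and 6 lower. LAMA5, a laminin alpha chain of epithelia, read 5353 in the parental and 6118 in the resistant line, and NID2 (nidogen-2) 86.1 and 101. AGRN, which encodes the heparan sulfate proteoglycan agrin, was 0.95 lower on the log2 scale, at 2694 and 1395, and 0.76 lower over the mean of its 2 probes. Of 11 elastic fibre genes above it 6 were higher and 5 lower. Here FBLN1 (2760 and 2823) and EFEMP1 (2013 and 1943), both fibulins, were bright and nearly level. The latent TGF-beta binding protein genes went both ways, LTBP4 higher (174 and 300.4) and LTBP3 lower (306 and 220.0).

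Proteoglycan and hyaluronan genes were mostly dim, 10 of 14 higher with a median of 0.28. At the higher floor 4 were measured, 3 higher and 1 lower. The syndecan gene SDC1 was higher (345 in the parental and 399.96 in the resistant line), and SDC4 was the lower one (317 and 293). Matricellular genes were 8 higher and 5 lower with a median of 0.20. The calcium-binding SMOC1 read 1313 and 1224, CCN2 (connective tissue growth factor), a TGF-beta and YAP target, 1134 and 898, and TGFBI, a TGF-beta-induced matrix protein, 416 and 583. Contractile genes were evenly split, 4 higher and 5 lower. TAGLN2, a relative of TAGLN, read 3512 and 2566, the tropomyosin gene TPM2 1604 and 2011, and CNN2 (calponin-2) 614 and 821. For CNN2 the direction turned with the probe, from a log2 difference of 0.42 on the brightest to -0.14 over the mean of its 2 probes.

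The TGF-beta pathway induces many of the 32 genes in fibroblasts. Its list here also held the PDGF ligand genes PDGFA, PDGFB, PDGFC and PDGFD. Of the genes of this joint list above the floor, 3 were higher and 10 lower with a median of -0.18. At the higher floor this was 3 and 5 with a median of -0.03. The receptor genes TGFBR3 and TGFBR2 read 1734 and 510.2 in the parental and 1532 and 580.2 in the resistant line, and TGFBR2 was level (log2 0.002) over the mean of its 3 probes. SMAD3, which carries the signal to the nucleus, read 349 and 269. PDGFA, a ligand of the PDGF receptors, was higher at 116 and 195. Beyond these 32 genes and 8 lists, no gene of the wider matrix was examined.

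**Figure D4:**
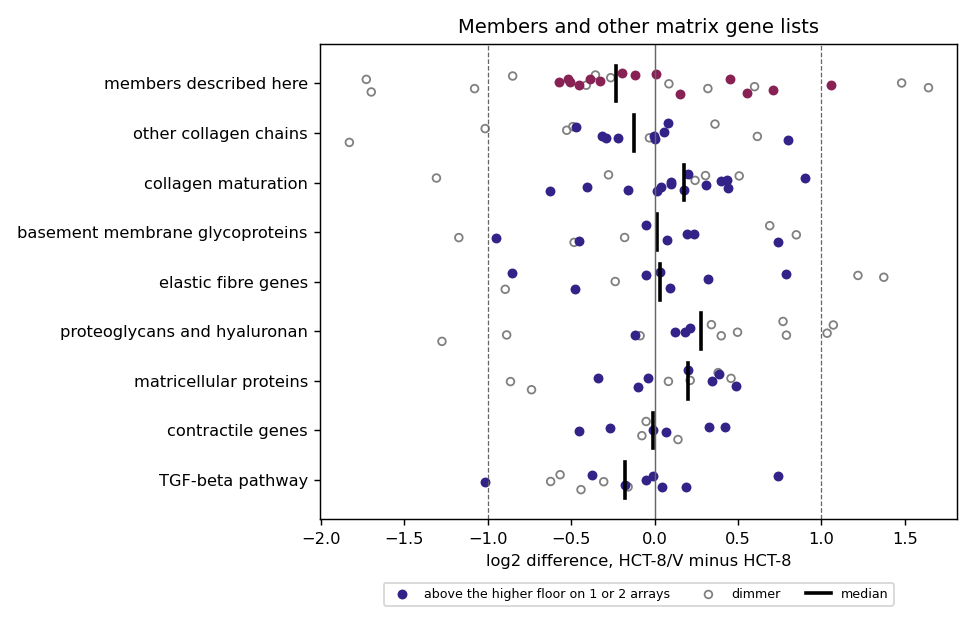
Log2 difference (HCT-8/V minus HCT-8) of each gene above the floor on at least 1 array, for the 26 mesenchymal and matrix genes (purple) and 8 further lists (blue). Filled points are bright on at least 1 array, open points are dimmer, bars are medians, dashed lines mark 2-fold, and vertical scatter within a list has no meaning. The TGF-beta pathway list also holds the PDGF ligand genes. Medians run from -0.23 for the 26 genes to 0.28 for proteoglycans and hyaluronan.

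The label of a colon cancer line was set against 12 markers of colon epithelium. KRT8 (2199 in the parental and 2283 in the resistant line), KRT18 (445 and 559.8) and EPCAM (117 and 79.97) were the brighter ones, CDH17 (66.4 and 65.6) and GPA33 (40.9 and 47.1) were dim and KRT19 was level with the floor (12.8 on both arrays). The other 6, CDH1, KRT20, CDX2, VIL1, LGALS4 and MUC2, were below the floor on both arrays. The keratin genes KRT8 and KRT18 were thus bright in both cultures, while KRT19 and KRT20 were not. Of the intestinal markers, CDH17 and GPA33 were read above the floor. The intestinal markers CDX2, VIL1, KRT20, LGALS4 and MUC2 and the E-cadherin gene CDH1 were not. The identity of the cultures was not checked against a reference profile.

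Markers of cell types that make matrix or could carry these genes into a culture were above the floor in part. Of 9 fibroblast markers 7 are among the 32 genes described here. The remaining ones were FAP, dim at 19.7 and 18.3, and THY1, below 0 on both arrays. The summed intensity of the fibroblast markers above the floor was 950.5 in the parental and 1267 in the resistant line, mostly from DCN. Each sum holds only markers above the floor on that array, so LUM entered it in HCT-8/V alone. Because the brightness of a probe depends on its sequence, a sum is not an amount of a cell type. Of 6 endothelial markers 3 were above the floor, with sums of 134 and 115. TEK was bright, at 99.7 in the parental and 85.8 in the resistant line, and PECAM1 and VWF were dim. CDH5, KDR and CLDN5 were below 0 on both arrays. Of 5 smooth muscle and pericyte markers 2 were above it, with sums of 113 and 109. MCAM was bright, at 113 in the parental and 93.1 in the resistant line. RGS5 was dim, at 15.9 in HCT-8/V and below the floor in HCT-8, and MYH11, DES and CNN1 were below the floor on both arrays. Of 6 blood cell markers 3 were above it, with sums of 901 and 1211, nearly all from CD68, while PTPRC, the pan-leukocyte gene, was below the floor at 11.2 and 7.10. Of 5 neural and glial markers, MBP and ENO2 were above it, with sums of 451 and 469, and GFAP and SOX10 were below the floor. The part of any of these in the readings of the 32 genes was not tested. TWIST1 itself read 163 in the parental and 185 in the resistant line on its single probe, and whether that probe reads the transferred sequence was not checked.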

How the data were processed

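Total RNA of 2 cultures, HCT-8 and HCT-8/V, was measured on 1 Illumina array each. The deposited values are 1 linear intensity per probe for 47323 probes. How the authors corrected background and scaled the arrays is not given in the sources used here. By their values the deposited intensities were background-subtracted (29.2% of probes below 0) and matched in distribution (both -44.98 to 19759), so a shift of most genes one way would not be visible. The number of arrays limits the precision, and no detection p-values were used.

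Genes were named from the platform annotation, updated by Entrez ID through RefSeq (GRCh38.p14). Of 30113 probes with 1 symbol, 30074 matched, and 17210 with several or none were left out. Intensities were floored at each array's median, and the brightest probe stood for a gene. No test was possible. Calculations used pandas 2.3.3, numpy 2.4.6 and statsmodels 0.14.6 in Python 3.11.15, and were checked on simulated arrays. The 32 genes and all lists were chosen with earlier results of these data known. The text names all 32, and from each further list its 2 brightest genes and, among genes bright on both arrays, the largest difference in each direction, besides the brightest marker of each cell type and every colon marker; other markers were named after their values were seen. Tried besides were median centring, a loess trend with brightness taken out (span 0.3), quantile normalization, the higher floor, no floor (an offset of 46.0 added), the mean of all probes, the second brightest probe and other fold thresholds. Listed genes with no named probe here were not analysed here.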

Additional observations from a re-analysis of the deposited data

How the results depend on the processing

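No paired analysis was possible because each line has 1 array. Quantile normalization, median centring and removal of the loess trend left the counts of genes higher and lower within 1 of 11 and 15, the 2-fold counts at 3 and 3, and the median between -0.26 and -0.23. Because the deposited arrays were already matched in distribution, quantile normalization could change little and is no check. The higher floor and the probe chosen mattered more. At the higher floor, which by construction leaves fewer genes, 14 genes were measured, 6 higher and 8 lower, with 1 at least 2-fold higher and 0 lower. With the second brightest probe, available and above the floor for 9 genes and above the higher floor for 4, there were 4 higher and 5 lower, 0 at least 2-fold in either direction, and a median of -0.040. POSTN was reversed by it, to a log2 difference of -0.70. With no floor 0 genes reached 2-fold in either direction and the median was -0.045, and with the mean of all probes 1 gene was at least 2-fold higher and 2 lower and the median was -0.11. The mean over genes was -0.093, and the median over all measured genes 0. At 3-fold 1 gene was higher and 2 lower, and at 1.5-fold 5 and 4. Of 152 values of single genes under an alternative 7 had the opposite sign, 4 of them with the second brightest probe, 2 with the mean of all probes and 1 with median centring. The second brightest probe gave only 8 of the 152 values, so 4 of its 8 changed sign, those of VIM, COL6A3, TAGLN and POSTN. Of 56 medians of the further lists 12 had the opposite sign. The cause was not tested. Signal over background limits every reading between the 2 floors.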
